A study of Ovis aries with 3 samples.

Results

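The genes described here are the nuclear genes of respiratory complexes II, III and IV, of cytochrome c and of ATP synthase (complex V), as their transcripts appeared in extracellular vesicles of the sheep conceptus. Members were taken by symbol from the deposited table, and 37 of its 25197 rows matched: 5 for complex II, 8 for complex III, 1 for cytochrome c, 10 for complex IV and 13 for ATP synthase. The 37 rows carry 36 distinct names, since UQCRH has a pair of rows. The study has 1 group with 3 libraries and no control group. It consists of vesicle RNA from intact conceptuses of day 14 of pregnancy, each cultured alone for 24 h in a dish with 10 ml of medium. The medium contained 10% fetal bovine serum from which exosomes had been depleted. The conditioned medium was filtered at 0.2 µm and vesicles were precipitated with ExoQuick-TC, so the preparation was defined by filter and precipitation and not by a cell type. The labels do not say which animal a library came from, so technical variation may enter the differences between libraries.

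Oxidative phosphorylation is carried out in the inner mitochondrial membrane. Complex II (succinate dehydrogenase) takes electrons from succinate, an intermediate of the citric acid cycle, complex III passes them from ubiquinol to cytochrome c, and complex IV (cytochrome c oxidase) hands them to oxygen. The proton gradient that complexes III and IV help to build drives ATP synthase, a rotary enzyme with a catalytic F1 head in the matrix and a membrane part with a ring of c subunits. Complex II is encoded entirely in the nucleus, whereas complexes III, IV and ATP synthase also need subunits made from the mitochondrial genome.

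Values are in RPKM-type units, which scale reads for gene length and library depth, so that levels can be compared between genes per length. The summed value was 17480.7, 40060.3 and 9531.8 in libraries 1, 2 and 3. In a gene as short as the U6 small nuclear RNA, 1 read was worth about 0.417, 0.534 and 0.45, and less in a longer gene. Detection of a row required that each of the 3 libraries reached a value of 1. As a measure of background, 2 of 170 olfactory receptor rows met this rule, and their 99th percentile was 2.03, 1.49 and 2.32 in libraries 1, 2 and 3. Of 9 trophectoderm marker rows 3 were detected (KRT8, TP-1 and S100G), with a summed value between 38 and 183 per library. CDX2, a defining regulator of trophectoderm, stood at 0.5, 0.2 and 0. None of 8 leukocyte, 6 erythroid and 10 heart and skeletal muscle marker rows was detected. With 3.89% of all rows detected, these counts do not set them apart from other rows. Among the leukocyte rows, AIF1 stood at 0.3, 2.8 and 4.1, CD74 at 1.5, 1.3 and 0.1 and CD68 at 0.1, 1.5 and 0. AIF1 exceeded the olfactory receptor percentile in libraries 2 and 3.

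Transcripts of complexes III and V were present in every library for most of their genes. Detection was met by 23 of the 37 members (62.2%), against 3.89% of all rows. A value of 1 was reached in at least 2 libraries by 27 members, against 9.02% of all rows. In single libraries it was reached by 27, 30 and 23 members in libraries 1, 2 and 3, against 9.37%, 13.6% and 7.88% of all rows. By complex, 11 of 13 ATP synthase rows (84.6%) and 6 of 8 complex III rows (75%) were detected. So were 4 of 10 complex IV rows (40%), 1 of 5 complex II rows (20%) and CYCS. The complex IV rows include 5 tissue isoforms, described below. Without these, a count added after the values were seen, 4 of 5 complex IV rows were detected. The detected members include 22 of the 33 subunit rows and 1 of the 4 rows for assembly and related factors. Of the 14 members that were not detected, 7 stayed below a value of 1 in every library, beside 20678 of all 25197 rows. Of these 7 members, 3 were listed at 0 throughout, beside 5446 of all rows. Above the olfactory receptor percentile in all 3 libraries stood 20 members, namely 10 of ATP synthase, 5 of complex III, 4 of complex IV and CYCS. The share of all rows above it was not computed, so this count is a description only. In bulk vesicle RNA, fewer vesicles with a transcript and fewer copies per vesicle cannot be told apart.

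**Figure D1:**
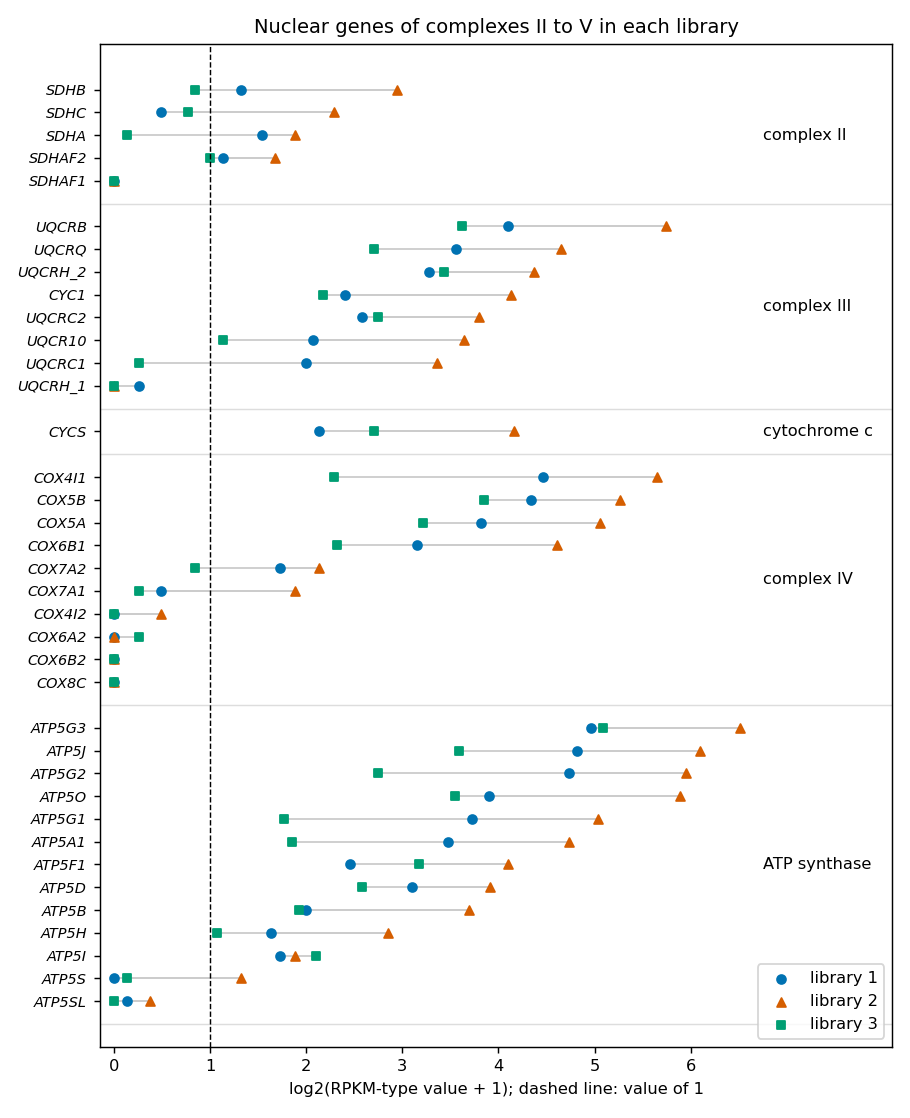
Level of each of the 37 members in libraries 1 (circles), 2 (triangles) and 3 (squares) on the log2(value + 1) scale, grouped by complex and sorted by mean. Library 2 holds the highest value of 31 members, and ATP5G3 is the highest member in all 3 libraries.

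The catalytic F1 head of ATP synthase was represented by ATP5A1 and ATP5B, the alpha and beta subunits that form ATP, and by ATP5D of the central stalk. ATP5A1 stood at 10.1, 25.7 and 2.6 in libraries 1, 2 and 3, a mean of 12.8 ± 11.8 (SD, n = 3). ATP5B stood at 3, 11.9 and 2.8 (5.9 ± 5.2; SD, n = 3), and ATP5D at 7.6, 14.1 and 5 (8.9 ± 4.69; SD, n = 3). The alpha subunit exceeded the beta subunit in libraries 1 and 2 by ratios of 3.37 and 2.16, while in library 3 the ratio was 0.93.

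The c ring, which turns as protons pass, held the highest member. Its subunit is encoded by 3 genes, ATP5G1, ATP5G2 and ATP5G3, whose products are known to differ in the import sequence that is cleaved off. ATP5G3 (ENSOARG00000000170) stood at 30.1, 90.3 and 33.1 (51.2 ± 33.9; SD, n = 3). ATP5G2 stood at 25.6, 61 and 5.7 (30.8 ± 28; SD, n = 3), and ATP5G1 at 12.2, 31.7 and 2.4 (15.4 ± 14.9; SD, n = 3). The order of the 3 genes was the same in every library, with ATP5G3 first and ATP5G1 last.

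The division among the c-ring genes differed between libraries. ATP5G3 made up 44.3% and 49.3% of their summed value in libraries 1 and 2 and 80.3% in library 3. ATP5G2 over ATP5G1 changed little, with ratios of 2.10, 1.92 and 2.38, whereas ATP5G3 over ATP5G2 was 1.18, 1.48 and 5.81. In rank over all 25197 rows ATP5G3 was 71st, 65th and 18th in libraries 1, 2 and 3, and ATP5G2 was 92nd, 90th and 213th. Despite this change within the ring, the 3 genes together made up 48.9%, 47.3% and 48.0% of the summed value of the ATP synthase rows.

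The peripheral stalk, which holds the head still against the ring, was detected in full among the rows matched. ATP5J (ENSOARG00000015187), coupling factor 6, stood at 27.2, 67.4 and 11 (35.2 ± 29; SD, n = 3) and ranked 85th, 87th and 86th. ATP5O, the subunit that ties the stalk to the head, stood at 14, 58.1 and 10.7 (27.6 ± 26.5; SD, n = 3). ATP5F1, subunit b, stood at 4.5, 16.2 and 8. The stalk subunit ATP5H was the low one at 2.1, 6.2 and 1.1, and ATP5J exceeded it by ratios between 10 and 13.0 in every library. Its value in library 3 lay below the olfactory receptor percentile.

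ATP5I, the small membrane subunit e, ran against the pattern of the other detected members. It stood at 2.3, 2.7 and 3.3, and was the one detected member with its highest value in library 3. Its ratio of library 2 over library 3 was 0.82, where the median of the 23 detected members was 4.38. Its lowest value, 2.3, is near the background percentile, and in a short gene a value of this size rests on few reads. The rows for related factors were low. ATP5S, known as factor B, stood at 0, 1.5 and 0.1, and ATP5SL at 0.1, 0.3 and 0. Both were counted with ATP synthase by symbol and are not subunits of it. Of the ATP synthase subunit rows alone, 11 of 11 were detected.

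Within ATP synthase, the median log2(value + 1) of the 8 rows of the membrane part and stalk was 3.81, 5.46 and 2.96, and that of the 3 F1 rows 3.1, 3.92 and 1.93. The difference was 1.09 ± 0.42 on the log2 scale (SD, n = 3) and above 0 in 3 of 3 libraries (exact sign-flip permutation test, two-sided, p = 0.25). With 3 libraries 0.25 is the smallest p this test can give, so no comparison below could pass 0.05. With means over the rows in place of medians the difference was 0.69. Subunits ATP5C1, ATP5E, ATP5J2 and ATP5L were not analysed here, and the comparison covers only the rows named.

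The 3 complex III rows with the highest mean encode accessory subunits. UQCRB (ENSOARG00000005495), which binds ubiquinone, stood at 16.1, 52.6 and 11.3 (26.7 ± 22.6; SD, n = 3). UQCRQ stood at 10.8, 24.1 and 5.5 (13.5 ± 9.58; SD, n = 3), and UQCRH_2, the hinge protein that helps cytochrome c1 meet cytochrome c, at 8.7, 19.7 and 9.8 (12.7 ± 6.06; SD, n = 3). These were above the olfactory receptor percentile in each library. The other copy, UQCRH_1, stood at 0.2, 0 and 0, and the division of reads between such copies is uncertain.

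The redox and core subunits taken by symbol had means below those 3 rows. CYC1, cytochrome c1, stood at 4.3, 16.5 and 3.5 (8.1 ± 7.29; SD, n = 3). The core protein UQCRC2 stood at 5, 12.9 and 5.7 (7.87 ± 4.37; SD, n = 3), and its partner UQCRC1 at 3, 9.3 and 0.2. The core pair was thus within a ratio of 1.67 and 1.39 in libraries 1 and 2 but not in library 3, where the ratio was 28.5 and UQCRC1 missed detection. UQCR10, a small accessory subunit, stood at 3.2, 11.5 and 1.2. CYCS, the cytochrome c that shuttles electrons from complex III to complex IV and also acts in apoptosis, stood at 3.4, 16.9 and 5.5 (8.6 ± 7.26; SD, n = 3). The ratio of CYC1 over CYCS was 1.26, 0.98 and 0.64.

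A row without a symbol, ENSOARG00000004471, is described as the Rieske subunit of complex III, its iron-sulfur protein, and was chosen with its values known. It stood at 6.8, 23.2 and 3.7 (11.2 ± 10.5; SD, n = 3) and was detected, though the symbol rule does not take it. A further row with the same description, ENSOARG00000019723, stood at 0, 0.5 and 0. With these rows, 7 of 10 complex III rows were detected.

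In complex IV, 4 subunit rows were detected, COX7A2 and COX7A1 reached a value of 1 in some libraries, and the other 4 rows stayed at 0.4 or below. COX4I1 (ENSOARG00000011503), the general isoform of subunit 4, stood at 21.1, 49.2 and 3.9 (24.7 ± 22.9; SD, n = 3). COX5B stood at 19.3, 37.4 and 13.4 (23.4 ± 12.5; SD, n = 3) and COX5A at 13.1, 32.4 and 8.3 (17.9 ± 12.8; SD, n = 3). Both are nuclear subunits known from a single gene. COX6B1, which faces the intermembrane space, stood at 7.9, 23.4 and 4 (11.8 ± 10.3; SD, n = 3).

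COX4I1 was near COX5B in libraries 1 and 2, with ratios of 1.09 and 1.32, and lower in library 3 with a ratio of 0.29. From library 1 to library 3 it showed the smallest ratio of the detected members, 0.18, beside 0.20 for ATP5G1 and 0.22 for ATP5G2. At the other end, ATP5F1, CYCS and ATP5I had ratios of 1.78, 1.62 and 1.43. COX5B over COX5A varied less, at 1.47, 1.15 and 1.61. The median ratio of library 3 over library 1 was 0.69 over the 23 detected members. It was 0.80 over all 981 detected rows, which describes rows that passed the same rule.

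The tissue isoforms of complex IV, which are known from lung, heart, skeletal muscle and testis, were not detected in any of 5 cases. Since 3.89% of all rows were detected, this count does not set them apart from other rows. COX7A1, the muscle isoform of subunit 7A, stood at 0.4, 2.7 and 0.2, and COX4I2, the lung isoform of subunit 4, at 0, 0.4 and 0. COX6A2, the muscle isoform of subunit 6A, stood at 0, 0 and 0.2, and COX6B2 and COX8C were listed at 0 in every library. Only COX7A1 in library 2 exceeded a value of 1. In that library its general counterpart COX7A2 stood at 3.4, a ratio of 1.26, and in libraries 1 and 3 at 2.3 and 0.8. COX7A2 therefore missed detection too.

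Markers of muscle were below 1 in library 2, where COX7A1 was highest. The summed value of the 10 heart and skeletal muscle marker rows was 1.5, 1.6 and 0.9 in libraries 1, 2 and 3. None reached 1 in any library, as was the case for 20678 of all 25197 rows. DES stood at 0.6, 0.3 and 0.1, MYL3 at 0.2, 0.4 and 0.2 and TNNC1 at 0, 0.6 and 0. MYL2 and TNNI3 were listed at 0. The part of such cells in the COX7A1 value was not tested.

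**Figure D2:**
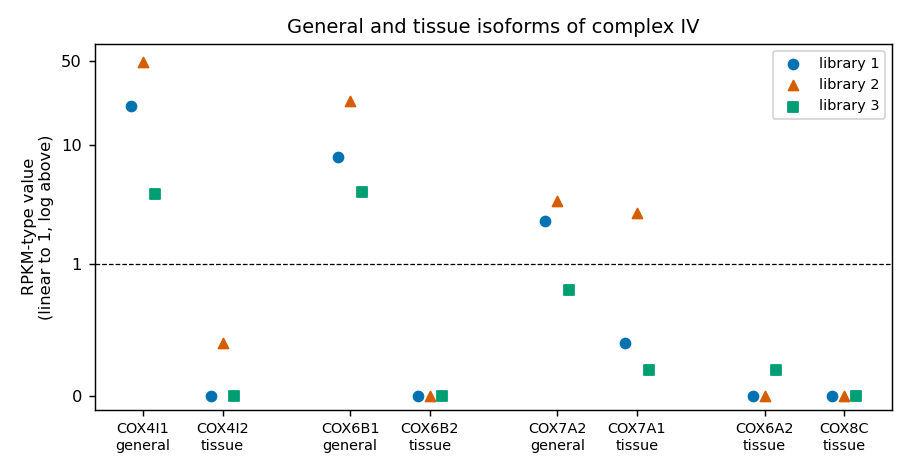
RPKM-type values (linear up to 1, logarithmic above) of the general and tissue isoforms of complex IV in libraries 1 (circles), 2 (triangles) and 3 (squares). Of the tissue isoforms only COX7A1 passes the dashed line at 1, in library 2 at 2.7, while COX4I1 and COX6B1 lie above it in every library.

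The median log2(value + 1) of the 3 general isoforms was 3.15, 4.61 and 2.29, and that of the 5 tissue isoforms was 0 in every library. The difference was 3.35 ± 1.17 (SD, n = 3), above 0 in 3 of 3 libraries (exact sign-flip permutation test, two-sided, p = 0.25; adjusted p = 0.25 over 5 differences of this kind). Since the lower median is 0, its size depends on the pseudocount and was 6.51 with a pseudocount of 0.1. The row ENSOARG00000012290, described as the general isoform of subunit 6A and chosen with its values known, stood at 5.8, 28.7 and 4.3 (12.9 ± 13.7; SD, n = 3). With it the difference was 3.34. COX6C, COX7B, COX7C and COX8A were not analysed here.

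Complex II had the lowest summed value of the 4 complexes in every library, and also the fewest rows. SDHB (ENSOARG00000011278), the iron-sulfur subunit, led with 1.5, 6.7 and 0.8 (3 ± 3.22; SD, n = 3). SDHC, a membrane anchor that binds heme, stood at 0.4, 3.9 and 0.7, and the flavoprotein SDHA, which oxidises succinate, at 1.9, 2.7 and 0.1. None of the 3 subunits was detected. Each had its highest value in library 2.

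Of the complex II assembly factors, SDHAF2, which helps attach the flavin to SDHA, was detected at 1.2, 2.2 and 1 (1.47 ± 0.643; SD, n = 3). It exceeded the olfactory receptor percentile only in library 2. SDHAF1, which aids the iron-sulfur subunit, was listed at 0 in all 3 libraries. Leaving out library 3, 3 of 5 complex II rows reached a value of 1 in both remaining libraries (against 7.29% of all rows), in place of 1 of 5. SDHD was not analysed here.

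Over all complexes together, subunits exceeded the 4 rows for assembly and related factors (SDHAF1, SDHAF2, ATP5S and ATP5SL). These 4 rows belong to complex II and ATP synthase only. In complex II the mean log2(value + 1) was 1.27 for SDHAF2 and 0 for SDHAF1. It was 1.70 for SDHB, 1.18 for SDHC and 1.19 for SDHA, so the order was mixed there. Over all complexes, the median log2(value + 1) was 2.41, 3.92 and 2.10 for the 33 subunit rows. For those 4 rows it was 0.07, 0.85 and 0.07. The difference was 2.48 ± 0.53 and above 0 in 3 of 3 libraries (SD, n = 3; exact sign-flip permutation test, two-sided, p = 0.25; adjusted p = 0.25 over 5), and 4.57 with a pseudocount of 0.1.

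Between complexes, the median log2(value + 1) over all rows was 1.14, 1.89 and 0.77 for complex II, 2.5, 3.96 and 2.44 for complex III, 1.10, 2.01 and 0.56 for complex IV and 3.1, 4.1 and 2.1 for ATP synthase in libraries 1, 2 and 3. Complexes II and IV were low and complexes III and V high in every library. ATP synthase exceeded complex II by 1.84 ± 0.45 and complex IV by 1.88 ± 0.29 (SD, n = 3). Complex III exceeded complex II by 1.70 ± 0.36, and complex IV minus complex III was -1.74 ± 0.30 (SD, n = 3). Each of these 4 differences had one sign in 3 of 3 libraries (exact sign-flip permutation test, two-sided, p = 0.25; adjusted p = 0.375 over 6 pairs). With means over the rows in place of medians, ATP synthase minus complex IV was 1.17 and complex IV minus complex III -0.88.

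By medians over all rows, the remaining pairs changed sign between libraries. ATP synthase minus complex III was 0.61, 0.14 and -0.33 in libraries 1, 2 and 3, a mean of 0.14 ± 0.47, and complex IV minus complex II was -0.03, 0.12 and -0.21, a mean of -0.04 ± 0.17 (SD, n = 3; exact permutation p = 0.75 and adjusted p = 0.75 for each). With subunit rows only, ATP synthase minus complex III was 0.63 ± 0.43 and complex IV minus complex II -0.24 ± 0.04. With means over the rows these were 0.29 ± 0.02 and 0.80 ± 0.09. Each of these had one sign in every library (SD, n = 3, exact sign-flip permutation test, two-sided, p = 0.25 for each). The sign change thus depends on the rows and the summary used. The place of complex IV in the order of medians over all rows rests on its tissue isoforms. Without those 5 rows, a comparison added after the values were seen, ATP synthase minus complex IV was -0.63 ± 0.38, complex IV minus complex III 0.77 ± 0.77 and complex IV minus complex II 2.47 ± 0.83 (SD, n = 3). Complex II thus stayed below complexes III and V and, without the tissue isoforms, lay below complex IV as well.

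**Figure D3:**
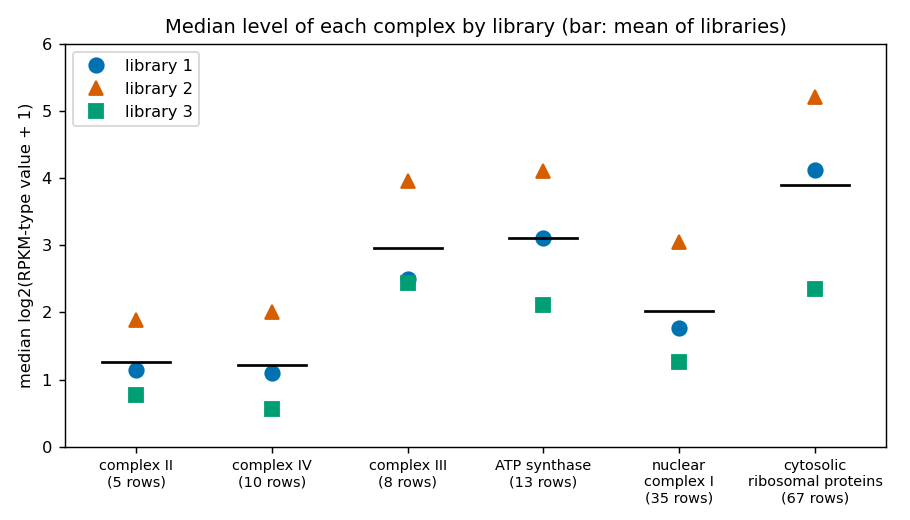
Median log2(value + 1) of the rows of each complex, of nuclear complex I and of cytosolic ribosomal proteins in libraries 1 (circles), 2 (triangles) and 3 (squares), with the mean over libraries as a bar. Complexes III and V lie above complexes II and IV in every library, and library 2 is highest in each group.

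By summed value, ATP synthase took a steady part of the members. It held 52.9%, 54.1% and 53.0% of the summed value of the 37 members in libraries 1, 2 and 3 (53.3% ± 0.704; SD, n = 3). Complex III held 19.5%, 20.5% and 23.0%, complex IV 24.4%, 20.8% and 19.0%, and complex II 1.90%, 2.17% and 1.61%. CYCS held 1.29%, 2.36% and 3.40%. The summed value of the members was 262.6, 715 and 161.9. Library 2 exceeded library 3 by 4.42 times here, beside 4.20 times for all rows. The members therefore took a similar share of each library, 1.5%, 1.78% and 1.70% (1.66% ± 0.145; SD, n = 3).

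**Figure D4:**
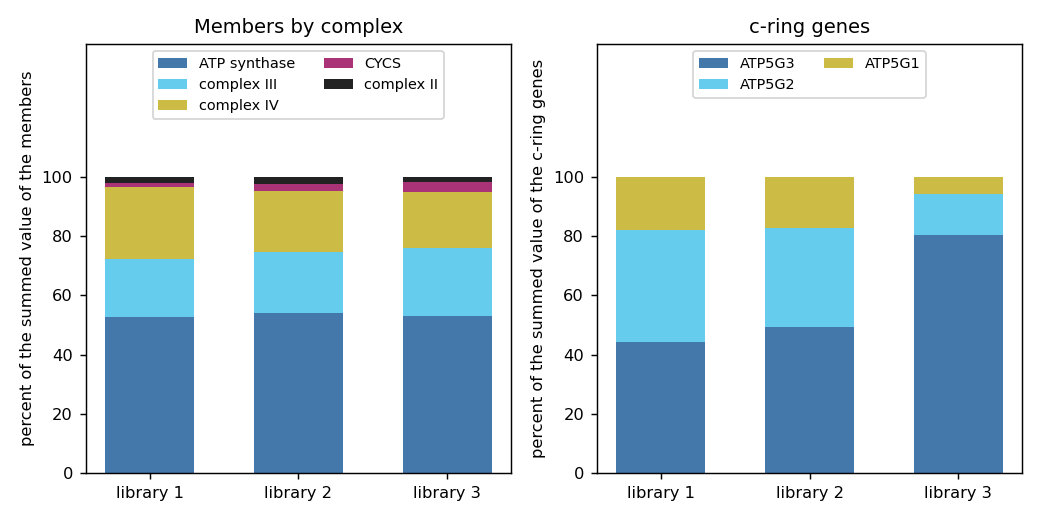
Left, percent of the summed value of the 37 members held by each complex and by CYCS in each library. Right, percent of the summed value of the c-ring genes held by ATP5G3, ATP5G2 and ATP5G1; ATP synthase keeps 52.9% to 54.1% on the left, while ATP5G3 goes from 44.3% and 49.3% to 80.3% on the right.

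The order of the members was also alike between libraries. Across the 37 members, which share their library and its depth, Spearman's rho was 0.98 between libraries 1 and 2, 0.90 between 1 and 3 and 0.90 between 2 and 3. Across the 23 detected members it was 0.97, 0.71 and 0.70, beside 0.75, 0.61 and 0.51 across all 981 detected rows. Genes are not independent replicates, and these values are a description. Every detected member was higher in library 2 than in library 1, with ratios from 1.17 for ATP5I to 4.97 for CYCS and a median of 2.58. Of all 981 detected rows 801 were higher in library 2 than in library 1, with a median ratio of 2.21.

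By median level, the members lay above nuclear complex I, the most similar gene group, and below the abundant cytosolic ribosomal proteins. Of 35 rows named NDUF, for complex I subunits and assembly factors, 17 were detected (48.6%), with median log2(value + 1) of 1.77, 3.05 and 1.26. The members' median was 2.07, 3.69 and 1.85, a difference of 0.51 ± 0.18 above 0 in 3 of 3 libraries (SD, n = 3; exact sign-flip permutation test, two-sided, p = 0.25; adjusted p = 0.25 over 5). Of 67 ribosomal protein rows 39 were detected (58.2%), beside 62.2% of the members. The members' median minus that of the ribosomal rows was -2.05, -1.52 and -0.50 in libraries 1, 2 and 3, a mean of -1.36 ± 0.79 (SD, n = 3; exact permutation p = 0.25, adjusted p = 0.25 over 5). With means over the rows it was -0.67. Ribosomal protein rows took 9.32%, 8.57% and 4.95% of the libraries. The members' share of library 3 lay between their shares of libraries 1 and 2. Whether the members and the ribosomal rows differ in this respect was not tested.

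Mitochondrially encoded subunits of complex IV and ATP synthase stood below 1, as did most rows. None of the mitochondrially encoded rows matched belongs to complex III. For complex IV, COX1 stood at 0.6, 0.7 and 0.3, COIII at 0.6, 0.9 and 0.1 and MT-CO2 at 0.1, 0 and 0. For ATP synthase, MT-ATP6 stood at 0.1, 0.1 and 0 and MT-ATP8 was listed at 0. These 5 rows encode the catalytic core of complex IV and membrane subunits of ATP synthase. Each was below 1 in every library, as were 20678 of all 25197 rows, so this does not set them apart from other rows. In library 2 a value of 1 was reached by 6 of the 10 nuclear rows of complex IV and 12 of the 13 of ATP synthase. Of all rows 13.6% reached it there. Nuclear rows were not all high, since COX7A2 stood at 0.8 and ATP5H at 1.1 in library 3 and the tissue isoforms were near 0 apart from COX7A1 in library 2. Of all 12 mitochondrially encoded rows 2 were detected (16.7%), against 3.89% of all rows. This count is too small to set the list apart from other rows. The 2 detected rows were MT-ND6 at 7.7, 6.2 and 1.4 and ND2 at 1.2, 1 and 1.3, neither among the 5 rows above.

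Genes that build or serve the complexes were detected at differing rates, beside 3.89% of all rows. The count for assembly factors is too small to set that list apart from other rows. Of 25 rows for assembly factors 2 were detected (8%): UQCC2 of complex III stood at 1.7, 10.7 and 1, and COA1 of complex IV at 2.3, 5.7 and 1.9. COX20, which handles a newly made subunit of complex IV, stood at 2.8, 6 and 0.1. Carriers and regulators of ATP synthesis were detected in 7 of 10 cases (70%), with VDAC2, an outer membrane channel, at 10.5, 30 and 12.8. The phosphate carrier SLC25A3 stood at 6.8, 19.8 and 3.1, and ATPIF1, the inhibitor of ATP synthase, at 2.5, 14.6 and 4.6.

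Other enzymes of the citric acid cycle, to which complex II also belongs, had 13 rows. Their detected count is too small to set this list apart from other rows. Detected were 2 of the 13 (15.4%, beside 3.89% of all rows). They were MDH2, malate dehydrogenase, at 6.2, 25.8 and 6, and SUCLG1, which makes succinate, at 2, 8.4 and 1.8. FH, fumarase, which uses the product of complex II, stood at 0.8, 5.5 and 2.4. Among 11 nuclear regulators of mitochondrial genes, 1 was detected, a count that does not set them apart from other rows. The detected row was the coactivator PPARGC1A at 1.1, 1.1 and 3.9, which the olfactory receptor percentile exceeded in libraries 1 and 2. TFAM, which packages and transcribes mitochondrial DNA, stood at 1.1, 2.7 and 0, and ESRRA at 0.9, 1.3 and 0.3.

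**Figure D5:**
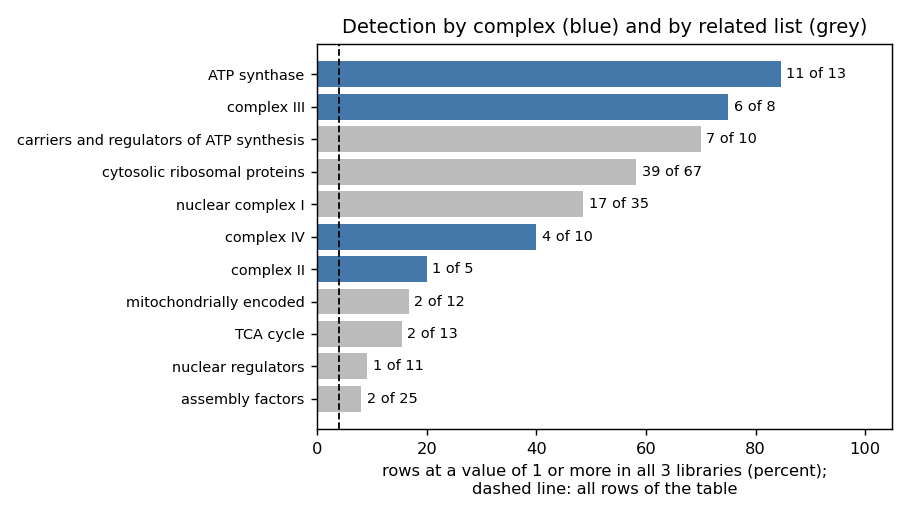
Percent of rows that reached a value of 1 in each library, for each complex (blue) and related gene list (grey), with the counts beside the bars and all rows of the table as a dashed line at 3.89%. ATP synthase with 11 of 13 and complex III with 6 of 8 have the longest bars, and assembly factors with 2 of 25 the shortest. The complex IV bar includes the 5 tissue isoforms, without which 4 of 5 rows were detected.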

How the data were processed

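RNA of vesicles from day 14 sheep conceptuses was sequenced in 3 libraries of 1 group, from 5 ng of total RNA each and with paired reads 50 bp long, per the labels' protocols. The authors deposited 1 table of 25197 rows holding 1 value for each library and their mean. The unit is not named; the deposited values were taken as RPKM, rounded by the authors to 1 decimal, and FPKM would look alike. Per the submitters' processing notes, the build was Oar_v3.1; which aligner and counter were used is not given in the sources used here. Gene lengths and sequences were not used here, so whole reads were not recovered.

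Columns were assigned by their titles and libraries numbered in accession order. Members, gene lists and tests were chosen with earlier results of these data known. Levels are log2(value + 1). Differences of medians were taken within each library and tested over libraries by exact sign-flip permutation (two-sided), with Benjamini-Hochberg adjustment over 6 pairs of complexes and over 5 other differences. The functions were tested on simulated data. Of the members, values in every library were to be given for the 5 highest rows of each complex, all complex II rows, CYC1, CYCS, the c-ring genes and the tissue isoforms, and any other member could be named; of each other list, at most the 3 highest. CDX2, MYL2, TNNI3 and the mitochondrial subunits of complexes IV and V were chosen beyond this. Work was done in Python 3.11.15 with numpy 2.4.6, pandas 2.3.3 and matplotlib 3.10.9. Alternatives were other detection values, pseudocounts and summaries, a filter, summed copies, subunits only, and each library left out.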

Additional observations from a re-analysis of the deposited data

How the results depend on the processing

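Each result was recomputed under its alternatives, giving 160 values. Of these 143 kept the direction of a difference, stayed within 1.5 times for a count, or moved by less than 1 SD between libraries for the members' share. The complex II count of 1 was 2 at a detection value of 0.5, 0 at a value of 2, 3 in at least 2 of 3 libraries, 0 for subunits only, and 1 to 3 with a replicate left out (3 without replicate 3). Complex IV minus complex II turned from -0.04 to 0.80 with the mean over members, 2.17 for members at 1 or more in at least 1 library, 0.31 with the rows named only in their description, 2.47 without the tissue isoforms, and ranged from -0.12 to 0.046 with a replicate left out (the latter without replicate 3). For members at 1 or more in at least 1 library, complex IV minus complex III was 0.40 and ATP synthase minus complex IV -0.19. Without the tissue isoforms these were 0.77 and -0.63; fewer rows of complex IV, the low ones, enter there. ATP synthase minus complex III was -0.034 with rows of one name summed and -0.095 to 0.38 with a replicate left out (the former without replicate 1); the cause was not tested. Without the 3 highest rows of each library the members' share was 1.89% in place of 1.66%, because the denominator is smaller. The alternatives on description rows and tissue isoforms were chosen after seeing the data. The comparison of short with long proteins was not run, since protein lengths were not used here. Subunits only could not be applied to the difference of subunits and related factors. No paired analysis was possible because the study has 1 group. Depth limits values near 1: in a gene as short as U6 such a value is about 2 reads.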
